A study of Mus musculus with 6 samples.

Results

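The genes described here are Gt(ROSA)26Sor, the transcript of the ROSA26 locus, and Creb1 and Crem, which encode transcription factors of the CREB family. They are 3 of 10290 genes that the arrays named by a probe set of their own, and were measured by 8 of the 19551 probe sets that are not array controls, namely 1 for Gt(ROSA)26Sor, 4 for Creb1 and 3 for Crem, each annotated to exactly 1 of these symbols. All 8 were kept whatever their signal. The tissue was anterior presomitic mesoderm (PSM), the mesoderm from which somites bud off, dissected from mouse embryos of the C57BL6/6J background at embryonic day 8.75. Each of 6 arrays held RNA of 1 pool of 3 PSMs. The 3 control pools were R26R AC/AC, homozygous for the AC allele at ROSA26 and without Cre, and the 3 mutant pools were R26R AC/AC;T-Cre, with the same homozygous allele and a Cre recombinase. T-Cre expresses the recombinase under control of Brachyury sequences, in the primitive streak and the mesoderm that leaves it, so that other cells in a pool need not have carried an active Cre. The labels do not spell out AC, which is read here as A-CREB, a dominant-negative protein, on the basis of what is known of the study. No pool had T-Cre without AC, and no pool lacked the AC allele, so that the effect of Cre cannot be told apart from that of AC, and the level of the untargeted locus was not analysed here. The labels call the pools biological replicates. A lower signal in a pool does not tell fewer cells that make a transcript from less transcript per cell.

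ROSA26 is a widely expressed locus in which transgenes are often placed behind a stop cassette flanked by recombination sites, so that they are made only where Cre has removed it. Its transcript, Gt(ROSA)26Sor, is a long non-coding RNA. CREB1, CREM and ATF1 are close relatives that bind the cAMP response element (CRE) as pairs through a basic leucine zipper, and they activate transcription after phosphorylation, for example by protein kinase A, when they recruit the coactivators CBP and p300. Crem also makes the repressor ICER from an internal promoter. A-CREB carries an acidic stretch before the CREB leucine zipper and pairs with family members so that they cannot bind DNA. A rise of one family member after loss of another has been described in Creb1 mutant mice. The comparison of mutant with control pools therefore addresses whether the targeted locus changed after Cre and whether Creb1 or Crem transcripts changed with it.

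The ROSA26 transcript was much lower in mutant PSM. Its only probe set, 1452239_at, read 824 in control 1, 356 in control 2 and 865 in control 3, against 98.1 in mutant 1, 62.9 in mutant 2 and 91.7 in mutant 3. The values are scaled, linear MAS5 signals, a measure of brightness that sets the matched probes of a probe set against their mismatched partners. Control 2 read lower than the other controls, and the genotypes did not overlap, since even control 2 read above every mutant pool. Mean signal was 682 ± 283 (SD, n = 3 pools) in control and 84.2 ± 18.8 in mutant. On the log2(signal + 1) scale the difference, mutant minus control, was −2.92 (SE 0.33, 95% confidence interval −3.65 to −2.20), a level 7.58-fold lower in mutant (interval 4.59 to 12.5). Gt(ROSA)26Sor fell with an adjusted p of 0.003 (limma, two-sided, Benjamini-Hochberg over all 19551 probe sets). An adjusted p under 0.05 is called a change here, which 0.558% of all probe sets passed, 0.24% higher and 0.317% lower in mutant. Groups did not overlap in 19.1% of all probe sets, with 8.19% lower in mutant. An exact permutation test of this 1 probe set gave p = 0.1, the smallest value that 3 pools against 3 allow.

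**Figure D1:**
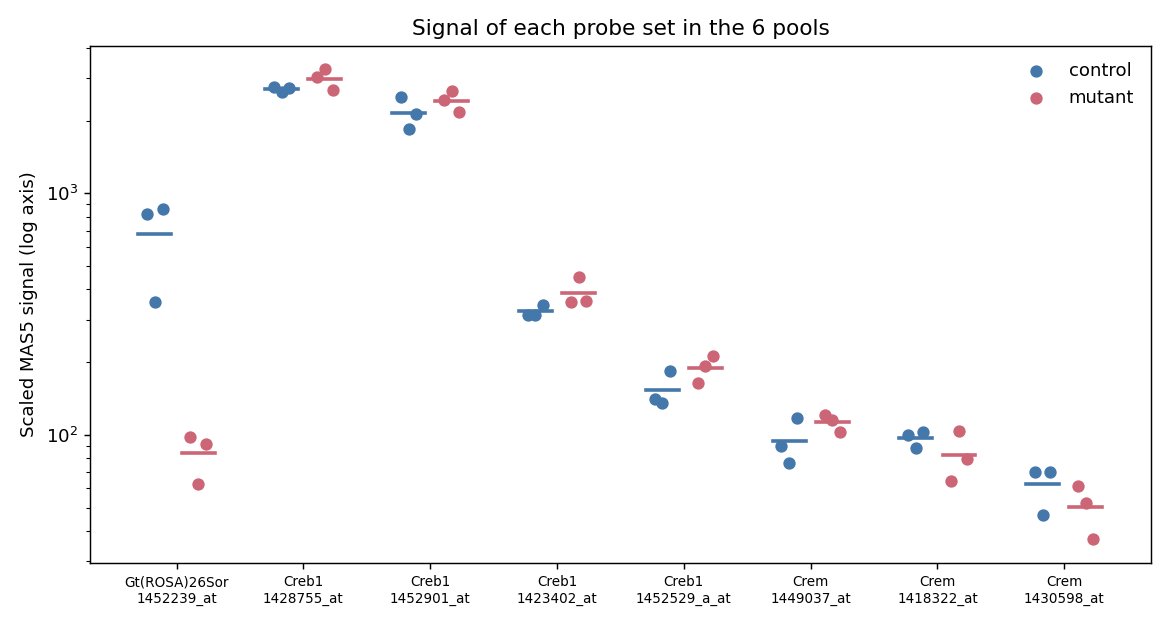
Scaled MAS5 signal (log axis) of the 8 probe sets of Gt(ROSA)26Sor, Creb1 and Crem. Points are the 3 control pools (blue) and 3 mutant pools (red) and bars are their arithmetic means. For Gt(ROSA)26Sor the controls lie between 356 and 865 and the mutants between 62.9 and 98.1, while the genotypes overlap for every Crem and for 3 of the 4 Creb1 probe sets. Heights of different probe sets are not comparable as transcript levels.

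Among all 19551 probe sets, no other had a more negative difference than Gt(ROSA)26Sor. It was the only one to lie at least 4-fold lower in mutant, whereas 16 lay at least 4-fold higher. The next most negative difference was −1.82, in a probe set without a gene name, and the third was −1.56, for Ripply2, which sets the somite boundary. By p-value the ROSA26 probe set ranked 22, since its controls spread widely (SD 0.72 in log2 units, against 0.34 in the mutants). In rank on its own array, Gt(ROSA)26Sor stood at percentiles 62.0, 40.4 and 62.0 in the 3 controls and at 9.60, 3.67 and 9.81 in the 3 mutants. In every mutant pool the signal was thus below the 10th percentile of that array. Detection calls were not used here, so whether the mutant signal stood above background is not known, and the fold depends on the low mutant values. With 64 added to each signal in place of 1, the difference was −2.25 (adjusted p = 0.00415).

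**Figure D2:**
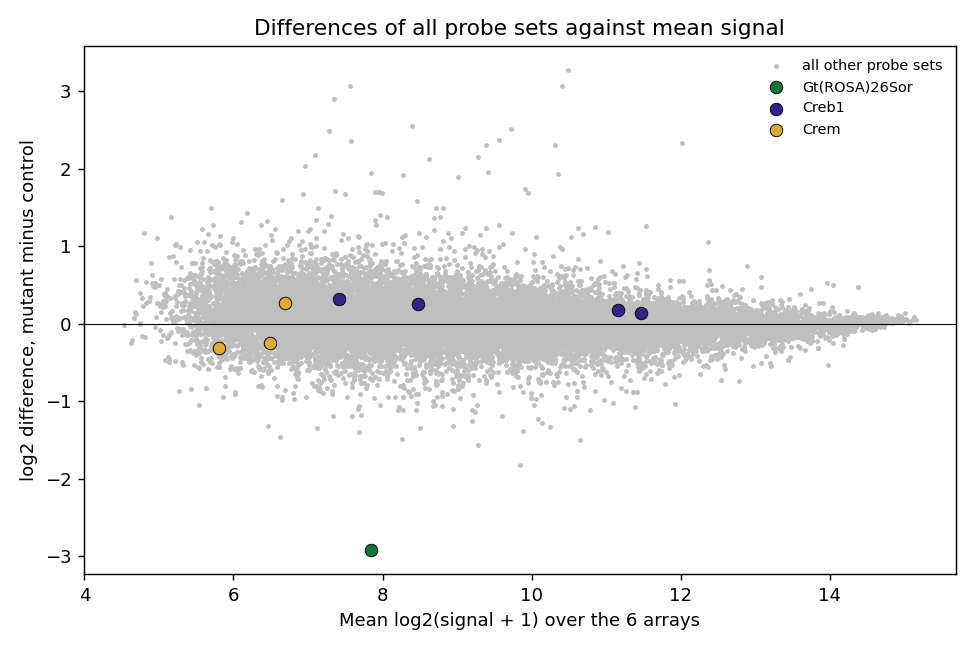
Difference of each probe set (log2, mutant minus control) against its mean log2(signal + 1) over the 6 arrays. Grey points are all probe sets and coloured points the 8 of Gt(ROSA)26Sor, Creb1 and Crem. Gt(ROSA)26Sor, at −2.92, lies below all other points, and the Creb1 and Crem points lie between −0.31 and 0.32, inside the grey cloud.

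The arrays also differed in a technical measure, the 3' to 5' signal ratio of the dap spike-in, an added bacterial transcript. It was 19.6 to 23.8 in control 1, mutant 1 and mutant 2 (high-ratio arrays) and 10.2 to 12.2 in control 2, control 3 and mutant 3. Within the high-ratio arrays the Gt(ROSA)26Sor difference was −3.37 (1 control, 2 mutants), and within the others it was −2.58 (2 controls, 1 mutant). With this split as a block it was −2.98 (adjusted p = 3.65e-05). When each pool was left out in turn, the difference lay between −3.34, without control 2, and −2.70, without control 3, and the adjusted p was at most 0.026. Markers of the tissue were present. Of 9 measured PSM markers, all but Ripply2 missed the threshold and all 9 had negative differences (median −0.64), with a summed signal of 16805 to 18487 in control and 10930 to 15873 in mutant. Surface ectoderm markers summed to 15012 to 16516 in control and 21899 to 23605 in mutant, with 2 of 8 higher, Epcam and Krt19. Blood markers summed to 32059 to 44561 and 44586 to 62561 with 0 of 7 called by limma (5 at an unadjusted p under 0.05), and lateral mesoderm markers to 4960 to 5228 and 2171 to 2998 with 3 of 3 lower, Prrx1, Hand2 and Foxf1. Such sums weigh the brightest probe sets most, for blood Hbb-y (mean 18233 in control, 25422 in mutant) and Hbb-bh1 (14304 and 20224). Differences were positive for 8 of 8 surface ectoderm (median 0.58) and 6 of 7 blood markers (median 0.50). The negative blood marker was Tal1 (−0.74, limma adjusted p = 0.201), without overlap between the genotypes. Differences were negative for 3 of 3 lateral mesoderm markers (median −0.95). Of 4 somite markers 3 were negative (median −0.08), and Pax3 rose (limma adjusted p = 0.0299). Of 6 gut endoderm markers 5 were positive (median 0.32), and Sox17 fell (limma adjusted p = 0.0492). All 6 endothelial markers were negative (median −0.66), and Kdr fell (limma adjusted p = 0.0345). All 3 neural tube markers were positive (median 0.59), and 0 passed by limma (1 at an unadjusted p under 0.05). Over all 10290 represented genes, each read by its probe set of highest mean signal, 0.807% passed the threshold, 0.34% higher and 0.466% lower. An unadjusted p under 0.05 was found for 1498 of them (14.6%). Calls of Epcam, Krt19, Hand2 and Foxf1 were lost in 4 or 5 of 6 limma fits that left out 1 pool, with adjusted p of up to 0.231. Those of Pax3, Sox17 and Kdr were not followed in these fits. The part of these shifts in the Gt(ROSA)26Sor difference was not tested.

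No measured gene beside ROSA26 passed the test in its brightest probe set. In the RefSeq gene table of assembly GRCm38.p6, Gt(ROSA)26Sor overlaps Thumpd3, a gene named for its RNA-binding THUMP domain, and is followed by Setd5, a SET-domain gene of chromatin regulation. Of 16 genes listed near the locus 10 were measured. By the brightest probe set of each, 0 passed the threshold in either direction (limma, adjusted p at least 0.515, and 0 with an unadjusted p under 0.05), with a median difference of 0.08. Over all represented genes 0.807% passed and the median was 0.02. Thumpd3 read 2552 ± 336 (SD) in control and 2836 ± 364 in mutant, a difference of 0.15 (SE 0.13, interval −0.15 to 0.45). Setd5 read 1820, 3125 and 3217 in control 1 to 3 and 1524, 1609 and 2894 in mutant 1 to 3, a difference of −0.46 (SE 0.27, adjusted p = 0.515). Its signal was 2894 or more in the 3 arrays of low spike-in ratio and 1820 or less in the high-ratio arrays of both genotypes. A second, dimmer Setd5 probe set, 1439515_at, had −0.54 (SE 0.18, interval −0.93 to −0.14, adjusted p = 0.234), with 321 to 346 in control and 196 to 279 in mutant and no overlap between the genotypes. Further along the chromosome Srgap3, which acts on small GTPases, had 0.33 (SE 0.29), and Brpf1, a chromatin reader, had −0.19 (SE 0.14). The Thumpd3, Srgap3 and Brpf1 groups overlapped.

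All 4 Creb1 probe sets had small positive differences, and none passed the threshold (limma, adjusted p 0.55 to 0.649, and 0 with an unadjusted p under 0.05). Probe set 1428755_at, the brightest, read 2764, 2621 and 2736 in control 1 to 3 and 3017, 3258 and 2685 in mutant 1 to 3. Mutant 1 and mutant 2 lay above all controls, and mutant 3 lay among them. The difference was 0.14 (SE 0.11), and the 95% interval of the fold ran from 0.93 to 1.30. Probe set 1452901_at read 2497, 1848 and 2127 in control and 2433, 2662 and 2174 in mutant, with overlapping groups, a difference of 0.17 (SE 0.14) and an interval of the fold from 0.91 to 1.39.

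The other Creb1 probe sets were dimmer. Probe set 1423402_at read 315, 314 and 346 in control and 354, 451 and 360 in mutant. Here every mutant pool lay above every control pool, as in 10.9% of all probe sets, but mutant 3 and mutant 1 exceeded control 3 by little. The difference was 0.25 (SE 0.16, fold interval 0.93 to 1.52). Probe set 1452529_a_at read 140, 135 and 184 in control and 164, 193 and 212 in mutant. Control 3 lay above mutant 1, the difference was 0.32 (SE 0.20), and the fold interval ran from 0.91 to 1.70. The highest rise that the 95% intervals of the 4 probe sets left possible was thus 1.30-fold for the brightest and 1.70-fold for the dimmest. A p above the threshold does not show that Creb1 was equal in both genotypes.

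Within the high-ratio arrays the Creb1 differences were 0.18 for 1428755_at, 0.03 for 1452901_at, 0.34 for 1423402_at and 0.34 for 1452529_a_at. Within the others they were 0.00, 0.13, 0.13 and 0.43 in the same order. All 4 stayed positive in every setting that tested them, over a range of 0.07 to 0.45, and none was called in any of them. The filter at the 40th percentile of mean signal left out 1452529_a_at. The probe sets share RNA and a gene, so they are not independent measurements of it. The part of Creb1 that each probe set matches is not given in the sources used here, and whether any of them also reads the AC coding sequence was not tested.

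**Figure D3:**
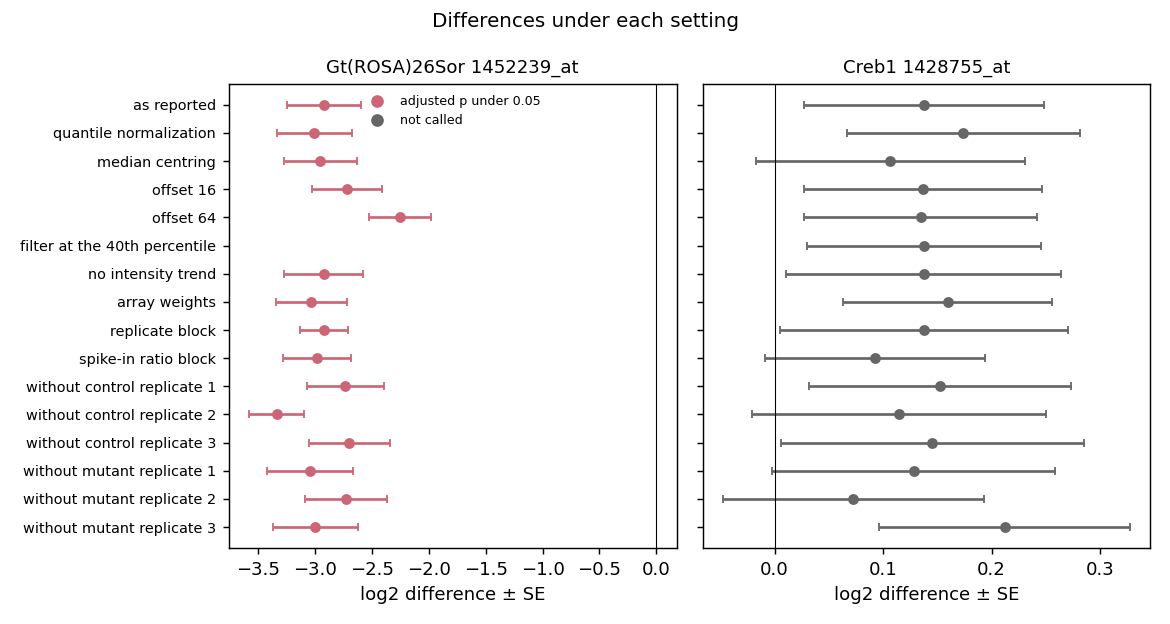
Difference (log2, mutant minus control, with SE) of Gt(ROSA)26Sor and of the brightest Creb1 probe set in the fit as reported and in each alternative. Red marks an adjusted p under 0.05. Gt(ROSA)26Sor lies between −3.34 and −2.25 and is called in each setting that tested it, and it falls below the filter at the 40th percentile. Creb1 lies between 0.07 and 0.21 and is called in none.

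The Creb1 promoter is shown because the CREB family can act on promoters of its own members. The window of 250 bases before and 50 after the gene start comes from the RefSeq promoter table (GRCm38.p6, chr1:64532554-64532853, plus strand), and capitals mark a GC box, the letters GGGGCGGGG searched on both strands, which 11.4% of all windows hold.
Creb1: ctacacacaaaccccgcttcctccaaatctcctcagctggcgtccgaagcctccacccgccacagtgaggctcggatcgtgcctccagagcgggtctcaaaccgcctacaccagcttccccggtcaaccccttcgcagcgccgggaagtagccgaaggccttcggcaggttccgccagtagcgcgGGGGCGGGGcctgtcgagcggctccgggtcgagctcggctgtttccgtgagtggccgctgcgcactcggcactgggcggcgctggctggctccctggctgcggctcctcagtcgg
Neither the full CRE, TGACGTCA, nor its core, TGACG on either strand, occurs in these 300 bases. The full CRE was found in 1.79% and the core in 20.8% of all 32851 windows. Of 18 genes of the CREB and ATF list, 14 had a window, 8 of them with the core and 1, Creb5, with the full CRE, in any window of the gene. By the same count per gene, 36.65% of 8403 represented genes with a window held the core and 3.62% the full CRE. Crem and Gt(ROSA)26Sor had no entry in the table. Of 8403 represented genes with a window, 0.821% passed the threshold, 0.321% higher and 0.5% lower in mutant.

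Crem was dim in both genotypes, and its 3 probe sets did not move in 1 direction. Probe set 1449037_at read 90.0, 76.4 and 117 in control and 121, 115 and 102 in mutant, a difference of 0.27 (SE 0.23, interval −0.23 to 0.77). Control 3 lay among the mutant values. Probe set 1418322_at read 99.9, 88.4 and 103 in control and 64.6, 104 and 79.5 in mutant, a difference of −0.25 (SE 0.24, interval −0.78 to 0.27). Mutant 2 read above all controls and mutant 1 and mutant 3 below them. Probe set 1430598_at read 70.1, 46.8 and 70.2 in control and 61.2, 52.1 and 37.0 in mutant, a difference of −0.31 (SE 0.29, interval −0.95 to 0.32).

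None of the Crem probe sets passed (limma, adjusted p 0.662 to 0.703, and 0 with an unadjusted p under 0.05). The 18 Crem signals lay at percentiles 0.71 to 15.2 of their arrays, and all 3 probe sets lay below the 40th percentile of mean signal. The confidence intervals of the 3 probe sets were wide and ran from 1.93-fold lower to 1.71-fold higher in mutant. The differences within these sets of high and low ratio were 0.39 and 0.11 for 1449037_at, −0.28 and −0.26 for 1418322_at, and −0.31 and −0.62 for 1430598_at.

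No measured member of the wider CREB and ATF list passed the test in its brightest probe set. Of 18 listed genes 12 were measured. By the brightest probe set of each, 0 rose and 0 fell (limma, adjusted p at least 0.284, and 1 with an unadjusted p under 0.05), with 6 positive and 6 negative differences and a median of −0.04. By these probe sets the gene closest to the threshold was Atf2, a CRE-binding factor that pairs with Jun. It read 3109 in control and 2584 in mutant by mean signal, a difference of −0.27 (SE 0.10, adjusted p = 0.284). Its 3 control pools read 3076 to 3128 and its mutants 2534 to 2618, without overlap, but 3 other Atf2 probe sets had −0.12, 0.21 and −0.11 with overlapping groups. Crebzf, a zipper protein that modulates other factors, had −0.25 (SE 0.16, adjusted p = 0.544) in its brightest probe set. In another, 1452857_at, it read 1277, 1352 and 1418 in control and 899, 908 and 961 in mutant, a difference of −0.55 (SE 0.12, adjusted p = 0.0798). There the genotypes did not overlap, although the adjusted p missed the threshold. Atf4, the factor of the amino acid response, had −0.13 (SE 0.13) and Atf5, its relative, 0.20 (SE 0.16).

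The membrane-bound factors of the list, which are cut free to enter the nucleus, had 0.27 (SE 0.17) for Creb3, −0.17 (SE 0.18) for Creb3l2, −0.09 (SE 0.19) for Atf6 and 0.01 (SE 0.20) for Atf6b. Stress-induced Atf3 had −0.16 (SE 0.25) and Atf7, a relative of Atf2, 0.07 (SE 0.23), both at dim signals. The only probe set listed for Atf1 carries more than 1 symbol, so Atf1, the third close relative, was not analysed here, and neither were Creb3l1, Creb3l3, Creb3l4, Creb5 and Crebl2.

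**Figure D4:**
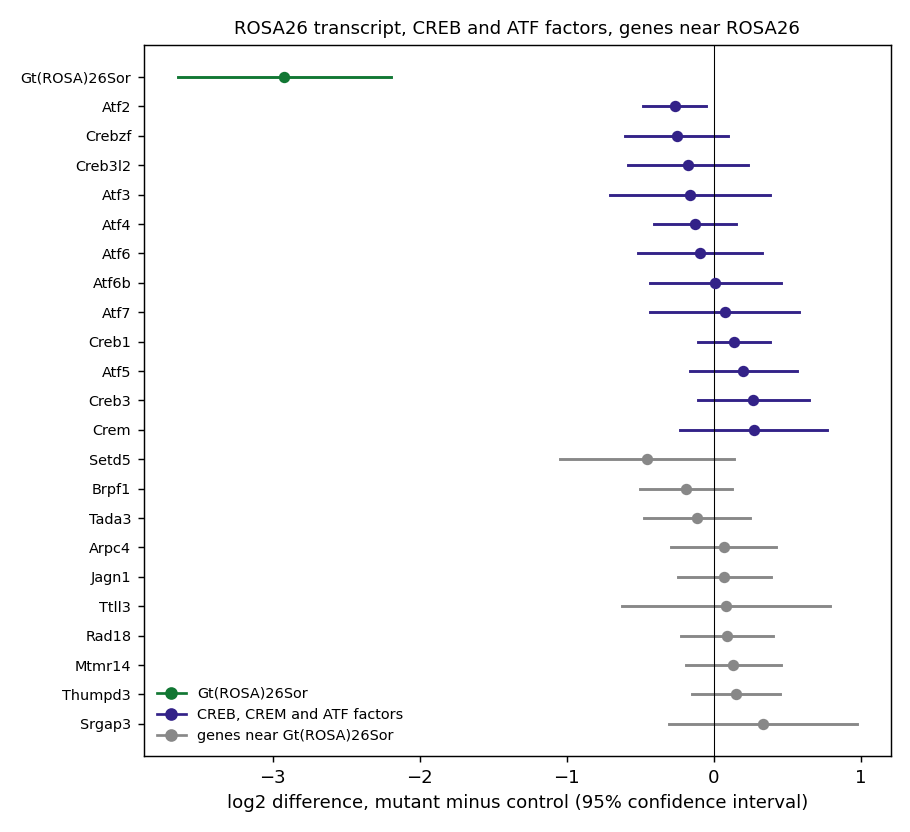
Difference (log2, mutant minus control) with its 95% confidence interval for Gt(ROSA)26Sor (green), the 12 measured CREB, CREM and ATF factors (blue) and 10 genes near ROSA26 (grey), 1 probe set per gene. The interval of Gt(ROSA)26Sor runs from −3.65 to −2.20, while all other genes have differences between −0.46 and 0.33.

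The measured coactivators of CREB proteins, and the enzymes and inhibitors that act on them, showed no called change in their brightest probe sets. Among coactivators 0 of 10 passed (limma, adjusted p at least 0.477, and 0 with an unadjusted p under 0.05; median −0.05). Crtc3, a CREB-regulated coactivator, had 0.38 (SE 0.20), Crebbp, which encodes CBP, −0.31 (SE 0.18), Ep300, which encodes p300, −0.16 (SE 0.13) and Taf4, a subunit of TFIID, −0.25 (SE 0.21). Of 27 listed kinases, phosphatases and inhibitors 20 were measured, and Prkar1b, Pkib, Camk1, Camk4, Rps6ka1, Rps6ka2 and Rps6ka4 were not. Among the measured genes 0 of 20 passed (limma, adjusted p at least 0.235, and 3 with an unadjusted p under 0.05), 15 were negative and the median was −0.07. Ppp1cb, a catalytic subunit of the phosphatase that can dephosphorylate CREB, had −0.34 (SE 0.11, adjusted p = 0.235). Prkar1a, a regulatory subunit of protein kinase A, had −0.29 (SE 0.11), Rps6ka5, the CREB kinase MSK1, −0.41 (SE 0.17), and Sik3, a kinase that holds CREB coactivators in the cytoplasm, −0.27 (SE 0.14). Of the 20 genes 5 had every mutant pool below every control pool, as had 9.49% of all represented genes (21.3% with no overlap in either direction, 11.8% higher).

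Of 26 listed genes of cAMP synthesis and breakdown 19 were measured. Among them 0 of 19 passed (limma, adjusted p at least 0.42, and 0 with an unadjusted p under 0.05, median 0.09). The phosphodiesterases Pde7a and Pde4b had −0.23 (SE 0.11) and 0.38 (SE 0.19), and the adenylyl cyclases Adcy2 and Adcy9 had 0.41 (SE 0.21) and 0.43 (SE 0.25). Of 15 measured factors from other families of basic leucine zippers, 0 passed (limma, adjusted p at least 0.0666, and 8 with an unadjusted p under 0.05, against 14.6% of all represented genes), with a median of 0.22. Batf3, a partner of Jun, had 1.33 (SE 0.27, adjusted p = 0.0666), Tef, a circadian output factor, 0.54 (SE 0.15, adjusted p = 0.153), Nfe2l2, or NRF2, of the oxidative stress response, 0.43 (SE 0.13, adjusted p = 0.205), and Mafk, its small Maf partner, 0.75 (SE 0.24, adjusted p = 0.23).

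Of 28 listed genes often used as CREB targets, 17 were measured. Fos, Fosb, Junb, Egr2, Nr4a3, Gadd45b, Ppargc1a, Pck1, Bdnf, Areg and Gem were not. Of the 17 measured, 1 rose and 0 fell (limma, 4 with an unadjusted p under 0.05), with 11 negative and a median of −0.10. Over all represented genes 0.807% passed, 0.34% higher and 0.466% lower, and 14.6% had an unadjusted p under 0.05. Their median was 0.02. The 1 target that rose was Egr1, an immediate early factor, with a mean signal of 65.5 in control and 370 in mutant (difference 2.49, SE 0.20, limma adjusted p = 0.000212). Its control mean lay below the 10th percentile of each control array (83.7 to 91.4), so the size of this difference depends on low control values. Rgs2, which dampens G protein signalling, had −0.56 (SE 0.17, adjusted p = 0.192). Ccn1, a matricellular protein, had 0.59 (SE 0.14, adjusted p = 0.104), and Btg2, an antiproliferative gene that is also a p53 target, 0.64 (SE 0.25, adjusted p = 0.308).

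Signals over the 6 arrays most like those of each gene were found by Pearson's r of log2 signal among probe sets with 1 symbol and a mean at or above the 40th percentile, as a description of 6 arrays. Nearest to Gt(ROSA)26Sor were Klhdc2 (r = 0.993), Pacrgl (0.989) and Rbpj (0.988), which binds DNA for the Notch pathway. Their differences were much smaller, at −0.24, −0.53 and −0.37. Nearest to the brightest Creb1 probe set were Txnip (0.996), Ap1m2 (0.994) and Flrt3 (0.993), with their highest signal in mutant 2 like Creb1. The probe set most like the brightest Crem probe set carries a Rik clone symbol, which the rule for names leaves out, and the next were Atraid (0.986), Celf1 (0.986) and Speg (0.967). As many as 225 probe sets exceeded an r of 0.9 with Gt(ROSA)26Sor, 276 with Creb1 and 46 with Crem.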

How the data were processed

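RNA of 6 pools was hybridised to Affymetrix mouse expression arrays after labelling with a 3' IVT kit, per the labels' protocols. The authors deposited 1 linear intensity per probe set and array, made with Affymetrix Expression Console and MAS5 per the submitters' processing notes. The versions, the scaling target and why the table holds 19606 probe sets were not given in the sources used here. Control probe sets (55) were left out, and 17348 of the others had 1 symbol in the platform annotation. Median signal was 491 to 535 per array. The number of arrays limits the precision.

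Values were taken as log2(signal + 1) and fitted with limma 3.58.1 (R 4.3.3), genotype only, empirical Bayes with an intensity trend, and no filter on low signal, with Benjamini-Hochberg adjustment over 19551 probe sets. The fit was checked on simulated data. It recovered 78 of 100 true log2 differences of 1 in size and 100 of 100 of 3. Of 19351 unchanged probe sets it called 11. The simulated noise was drawn independently for each probe set and array. Differences shared by many probe sets of an array were thus left out, and these counts need not hold for the real arrays. Smaller differences, such as those of Creb1 and Crem, were not simulated. The 3' to 5' ratio of the dap spike-in, split at 15, parted the arrays, and this split, known from earlier results, served as a block. Lists used the brightest probe set with 1 symbol per gene. The naming rule took all measured CREB and ATF factors, up to 4 genes per other list by smallest p and any that passed, and the 3 genes most like each member. The members and lists were chosen with earlier results of these data known. Alternatives were other normalizations, offsets, a filter, array weights, no trend, blocks and leaving out each pool.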

Additional observations from a re-analysis of the deposited data

How the results depend on the processing

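The number of called probe sets, 109, moved with the settings: 47 without the intensity trend, 902 with array weights, 218 with replicate number as a block, 680 with the spike-in ratio block, and 33 to 206 when 1 pool was left out (33 without mutant 1, 37 without control 3, 39 without control 2 or mutant 2, 175 without control 1 and 206 without mutant 3). The cause was not tested. Quantile normalization gave 125, median centring 135, offsets of 16 and 64 gave 109 each, and the filter at the 40th percentile 81 of 11731. The fall of Gt(ROSA)26Sor kept its direction and call in all 14 alternatives that tested it (adjusted p at most 0.026) and was the most negative difference in each. The filter, at a geometric mean signal of 349, left it out. No Creb1 or Crem probe set was called or turned its sign in any alternative that tested it, and the filter also left out Creb1 1452529_a_at and the 3 Crem probe sets. By the brightest probe set of each gene, 0 of the CREB and ATF factors were called in each alternative. The same count was 0 over the lists of factors, coactivators, kinases and cAMP genes. Dimmer probe sets of the other factors, among them Crebzf 1452857_at, were not followed through the alternatives. Residuals of pools with equal numbers correlated at 0.18, −0.27 and 0.27, so the numbers were not taken as pairs. With the replicate block, Gt(ROSA)26Sor kept −2.92 (adjusted p = 5.88e-06). The low signals of Crem limit what could be measured.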

Other observations

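Among genes whose promoter holds a full CRE, 6 fell and 1 rose in mutant PSM. This grouping was chosen after seeing the data and is a description of these 6 arrays, with no test of the group. Of 8403 represented genes with a window of 250 bases before to 50 after the start in the RefSeq promoter table (GRCm38.p6), 304 (3.62%) held TGACGTCA, which reads the same on both strands. The 7 called genes (limma adjusted p under 0.05) are 2.3% of these 304, beside 0.821% of all 8403. The median difference of the 304 genes was −0.07, beside 0.02 over all, and 61.8% of the 304 were negative, beside 47.1% over all. In each of 15 alternative settings the share called was above that of all genes and the median below it. These settings reuse the same 6 arrays, so they are not independent of one another. The number called was 2 to 33 of these genes, with 3 without the intensity trend, 11 with the replicate block, 29 with the spike-in ratio block and 33 with array weights. It was 2 without control 2, control 3 or mutant 1, 4 without mutant 2, 8 without mutant 3 and 9 without control 1.

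For each of the 7 called genes 1 site is shown with 10 bases on each side, on the strand of the gene, with the CRE in capitals. Any match for these genes on a chromosome other than the one given was left out. The CRE is the sequence by which these genes were grouped.
Nubpl (chr12:52097709-52097736, plus): ggttgccacgTGACGTCAtttttccgcg
Ice2 (chr9:69397903-69397930, plus): ggcgctcgcgTGACGTCAtcacgcgcgg
Brca2 (chr5:150522591-150522618, plus): cgcggggtcaTGACGTCAcgggcagagc
Ranbp6 (chr19:29813001-29813028, minus): gtcgcctcacTGACGTCAccgctcccag
Klhl12 (chr1:134455495-134455522, plus): tcccgtggcgTGACGTCAtcatgccgcg
Pop4 (chr7:38271369-38271396, minus): gtcgcgtcaaTGACGTCAgagaggcgcc
Plk2 (chr13:110394972-110394999, plus): gcgctcgccgTGACGTCAcgaggccccg
Nubpl, needed to assemble respiratory complex I, fell most, from 1399, 1081 and 1079 in control to 445, 595 and 516 in mutant (difference −1.19, limma adjusted p = 0.011). Ice2, of the little elongation complex that serves small nuclear RNA genes, read 2381, 2100 and 1947 in control and 897, 1060 and 1036 in mutant (−1.10, adjusted p = 0.00371). Brca2, of homologous recombination repair, read 1400, 1487 and 1372 in control and 774, 678 and 735 in mutant (−0.96, adjusted p = 0.00654). Ranbp6 had −0.96, Klhl12, an adaptor of a ubiquitin ligase, −0.89, and Pop4, a subunit of ribonuclease P, −0.83. The 1 that rose was Plk2, a polo-like kinase and p53 target, with 957, 839 and 772 in control and 1580, 1345 and 1541 in mutant (0.80, adjusted p = 0.0299). With 1 pool left out, the limma call of Ice2 held in all 6 fits. That of Nubpl was lost without mutant 1 (adjusted p = 0.0911) and that of Brca2 without control 2 (0.0508) or control 3 (0.0519). Klhl12 lost its call without control 2, control 3 or mutant 1, Ranbp6 and Pop4 also without mutant 2, and Plk2 in all fits but that without control 1, with adjusted p of up to 0.158 for Klhl12, 0.141 for Ranbp6, 0.14 for Pop4 and 0.186 for Plk2.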
